A study of Bos taurus with 6 samples.

Results

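Ephrins and their Eph receptors were examined in bovine embryonic stem cells through 10 genes: the ligand genes EFNA1, EFNA5, EFNB1 and EFNB2, and the receptor genes EPHA1, EPHA2, EPHA4, EPHA7, EPHB2 and EPHB4. The genes were chosen by symbol and matched by Entrez identifier to the count table, which held 19163 genes. Counts were found for 9 of the 10, and EPHA4 was not analysed here. All 9 passed the filter on low counts, which kept 13001 genes for testing. The cells were F7, 1 line of pluripotent stem cells derived from an in vitro fertilized Holstein Friesian embryo, grown at passage 15 in a medium with fibroblast growth factor and a Wnt pathway inhibitor. MC-F7 (1M-F7 in the labels) was F7 grown on mouse embryonic fibroblasts (MEFs) that had been treated with mitomycin C and could no longer divide, and MT-F7 was F7 grown on MEFs killed by methanol fixation. The medium was changed daily in MC-F7 and on alternate days in MT-F7, so feeder type and feeding schedule cannot be told apart. Each group had 3 RNA-seq libraries, made from the cells that stayed afloat after a short plating on gelatin. The paper reports that a smaller share of MC-F7 than of MT-F7 reads aligned to the bovine genome. It proposes that fixed feeders reduced contamination by feeder cells. How much mouse feeder RNA entered the values below was not tested. No source used here says that the libraries within a group were separate cultures, so the p values measure only the spread between these libraries, which may be technical.

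Eph receptors are receptor tyrosine kinases whose ligands, the ephrins, are held on the surface of the neighbouring cell, so that signaling needs contact between cells. Ephrin-A ligands are tied to the membrane by a lipid anchor and bind mainly EphA receptors, while ephrin-B ligands span the membrane and bind mainly EphB receptors. Both the receptor-bearing and the ligand-bearing cell can respond, and the system is known for repulsion between cells, for sorting cells across tissue boundaries in the embryo and for axon guidance.

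The libraries held 21958386 to 24933430 counts, and 3 counts, taken as the smallest detectable amount, were 0.116 to 0.140 counts per 1000000 (CPM) at these depths. Genes of the mitochondrial genome took 16.3% to 28.3% of the counts, most of all in the third replicate on either feeder. Among markers of pluripotent cells, POU5F1 and NANOG were present in both groups, and the 6 markers in the count table summed to 928 to 1570 CPM in MC-F7 and 572 to 641 CPM in MT-F7, with 4 of the 6 lower and none higher. POU5F1 made up most of this sum, with means of 1195 CPM in MC-F7 and 522 CPM in MT-F7. The 14 fibroblast markers summed to 311 to 418 CPM in MC-F7 and 627 to 746 CPM in MT-F7, with 4 of 13 tested genes higher and 1 lower. FBLN1 carried most of this difference, with means of 108 CPM in MC-F7 and 327 CPM in MT-F7, and 8 of the 13 did not pass. The 9 neural markers also summed higher in MT-F7, at 1042 to 1169 CPM against 698 to 839 CPM, with 3 of 7 tested genes higher and 1 lower. Most of that difference came from STMN2, with means of 256 CPM in MC-F7 and 469 CPM in MT-F7. PAX6 and MAP2 had larger log2 fold changes, 2.92 and 2.13 (edgeR adjusted p = 7.65e-07 and 1.63e-05). ELAVL3 fell with -2.35 (edgeR adjusted p = 4.40e-04), and NES, TUBB3 and ELAVL4 did not pass. Of all tested genes 11.9% were higher and 11.3% lower. Among the lower markers, DPPA4 had 4, 5 and 4 counts in MT-F7 and TWIST2 had 2, 13 and 15. Both passed the filter on low counts through MC-F7, the group where they were high. The part of these marker shifts in the results below was not tested. In RNA pooled from many cells, here those that stayed afloat on gelatin, fewer cells of a type and less RNA per cell cannot be told apart.

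The comparison of MT-F7 with MC-F7 asked how ephrin and Eph transcripts differed between F7 on fixed feeder cells and F7 on living ones, each with its own feeding schedule. EFNB1 rose 4.09-fold, EPHA7 3.04-fold, EFNA5 2.10-fold and EPHB2 1.93-fold in MT-F7, and EPHA1 fell 1.63-fold. EFNA1, EFNB2, EPHA2 and EPHB4 did not pass the test. Thus 4 of the 9 tested genes passed as higher and 1 as lower, at a threshold of 0.05 on the adjusted p of edgeR's quasi-likelihood test with Benjamini-Hochberg adjustment over all 13001 genes. Among all tested genes 23.2% passed, 11.9% as higher and 11.3% as lower. The median log2 fold change was 0.31 over the 9 genes and -0.0026 over all tested genes. In 6 of the 9 genes the libraries of the 2 groups did not overlap (5 higher, 1 lower in MT-F7), against 40.0% of all tested genes (19.9% higher, 20.0% lower). Ligands and receptors were both among the genes that rose, and so were A and B class genes.

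**Figure D1:**
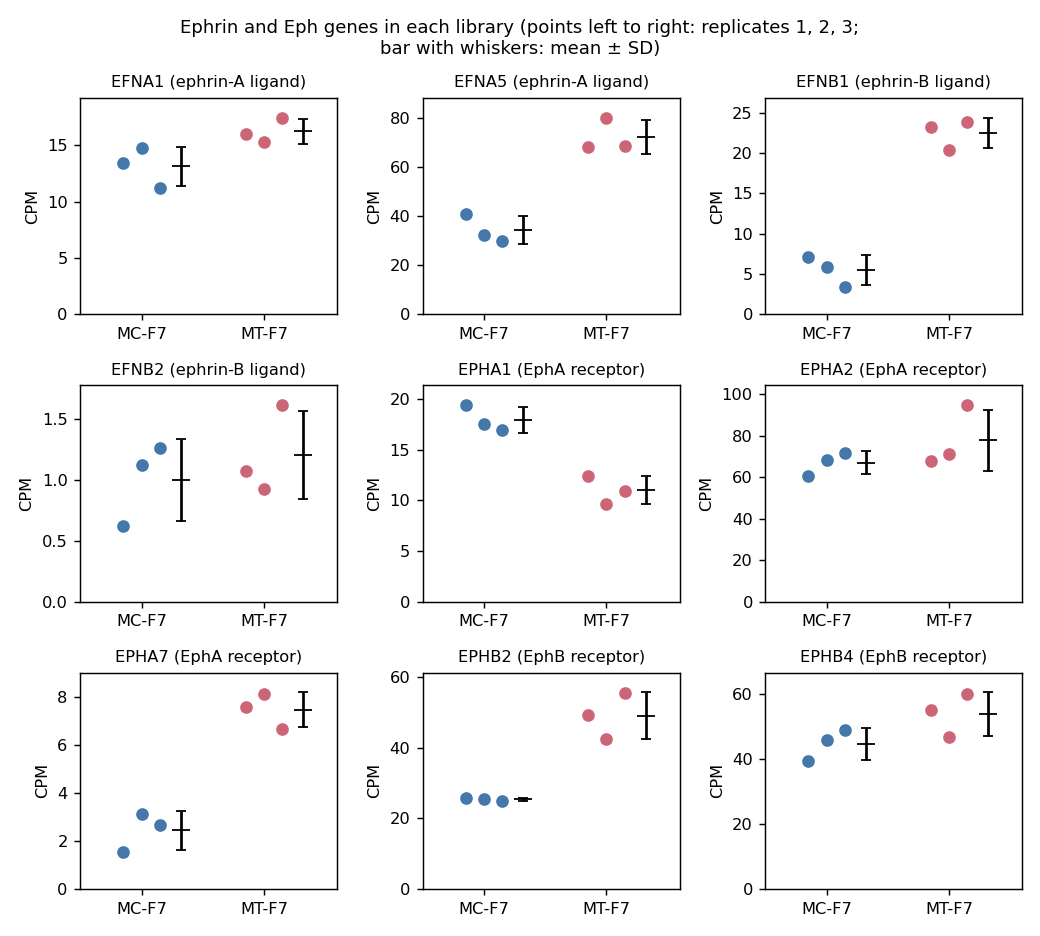
CPM (vertical axes, each from 0) of the 9 genes in the 3 MC-F7 libraries (blue) and the 3 MT-F7 libraries (red), with the mean and SD of each group in black. EFNB1, EPHA7, EFNA5 and EPHB2 lay higher in every MT-F7 library than in any MC-F7 library, EPHA1 lay lower, and EPHA2, EPHB4 and EFNB2 overlapped.

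The 2 ephrin-A genes differed in size of change. EFNA5 (Entrez gene 616742) encodes ephrin-A5, a repellent guidance cue for growing axons that binds EphA receptors and also EPHB2. Its level was 40.9, 32.6 and 30.0 CPM in MC-F7 replicates 1, 2 and 3 and 68.2, 80.2 and 68.8 CPM in MT-F7. All MT-F7 libraries lay well above all MC-F7 libraries. The mean rose from 34.5 ± 5.69 to 72.4 ± 6.79 CPM (SD, n = 3 libraries per group). The log2 fold change was 1.07 (standard error 0.164, edgeR adjusted p = 5.04e-04). EFNA1 (507319), the ligand first found as a gene induced by tumour necrosis factor in endothelial cells, had 13.4, 14.8 and 11.3 CPM in MC-F7 and 16.0, 15.3 and 17.4 CPM in MT-F7. The groups just failed to overlap, but the log2 fold change of 0.31 (standard error 0.172, edgeR adjusted p = 0.225) did not pass. The 95% confidence interval of the EFNA1 log2 fold change was -0.066 to 0.68.

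EFNB1 showed the largest change of the 9 genes. EFNB1 (534413) encodes ephrin-B1, which marks boundaries between groups of cells in the skull and face. It had 7.07, 5.93 and 3.46 CPM in MC-F7, from 160, 143 and 74 counts, and 23.3, 20.4 and 23.9 CPM in MT-F7, from 585, 528 and 562 counts. MC-F7 replicate 3 was the lowest library, and the gap between the groups was several times the spread within either. The means were 5.49 ± 1.85 and 22.5 ± 1.86 CPM, and the log2 fold change was 2.03 (standard error 0.236, edgeR adjusted p = 6.09e-05). EFNB2 (100139818), the ephrin-B2 gene known as a marker of arterial endothelium, was the weakest of the 9 genes, with 14, 27 and 27 counts in the MC-F7 libraries against 27, 24 and 38 on fixed feeders. These are 0.619, 1.12 and 1.26 CPM against 1.08, 0.927 and 1.61 CPM, and the groups overlapped. Its log2 fold change was 0.26 with a 95% confidence interval of -0.65 to 1.18 (edgeR adjusted p = 0.695), so a fall or a rise within that interval remained compatible with these counts. Without MT-F7 replicate 3, the log2 fold change was -0.0076.

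EPHA7 and EPHA1 moved in opposite directions, and EPHA2 had groups that overlapped. EPHA7 (538797) encodes a receptor known from the patterning of the developing brain and the closure of the neural tube. It had 1.55, 3.11 and 2.66 CPM in MC-F7 and 7.57, 8.11 and 6.66 CPM in MT-F7. Even its highest MC-F7 library had less than the lowest MT-F7 library by a wide margin. The means were 2.44 ± 0.804 and 7.45 ± 0.730 CPM, and the log2 fold change was 1.61 (standard error 0.271, edgeR adjusted p = 0.00100).

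EPHA1 (525946), a receptor of epithelial cells, was the only gene of the 9 that fell. Its level was 19.4, 17.5 and 17.0 CPM in MC-F7 and 12.4, 9.65 and 11.0 CPM in MT-F7. The groups did not overlap, and each was tight. The mean fell from 18.0 ± 1.28 to 11.0 ± 1.37 CPM, and the log2 fold change was -0.71 (standard error 0.171, edgeR adjusted p = 0.00953). The call was lost without MT-F7 replicate 2 (edgeR adjusted p = 0.0528) and with limma on the deposited TPM values (adjusted p = 0.0672). Over all alternatives the adjusted p ran from 8.07e-04 to 0.0672. As in all limma fits here, the TPM values were not scaled and still hold library size. Limma on log2(TPM + 1) called 1733 of 15482 genes higher and 908 lower in MT-F7, against 1553 and 1463 of 13001 with edgeR.

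EPHA2 (512798), a receptor abundant in many epithelia and in early embryonic cells, had the highest mean CPM of the 9 genes in both groups, although EFNA5 lay above it in MT-F7 replicates 1 and 2. It had 60.7, 68.2 and 71.7 CPM in MC-F7 and 67.6, 71.2 and 94.6 CPM in MT-F7. Only MT-F7 replicate 3 stood above all MC-F7 libraries. The log2 fold change was 0.22 with a 95% confidence interval of -0.14 to 0.58 (edgeR adjusted p = 0.374).

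Of the EphB receptors EPHB2 rose and EPHB4 did not pass. EPHB2 (535137) encodes a receptor that acts in axon guidance, at synapses and in the positioning of cells in the gut epithelium. It had 25.8, 25.4 and 24.9 CPM in MC-F7 and 49.3, 42.3 and 55.5 CPM in MT-F7. MC-F7 was nearly uniform, and MT-F7 was more spread but without overlap. The mean rose from 25.3 ± 0.457 to 49.0 ± 6.60 CPM, and the log2 fold change was 0.95 (standard error 0.156, edgeR adjusted p = 8.28e-04). EPHB4 (515756), the receptor of ephrin-B2 known from veins, had 39.4, 45.8 and 49.0 CPM in MC-F7 and 55.0, 46.7 and 59.9 CPM in MT-F7. Its highest MC-F7 library lay above its lowest MT-F7 library, and the log2 fold change was 0.27 with a 95% confidence interval of -0.075 to 0.61 (edgeR adjusted p = 0.250).

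The other 12 genes of the family were read from the same fit. Of these, 10 were tested, 2 were higher and 2 lower, so over the whole family 6 of 19 tested genes were higher and 3 lower. This was 40% of the 10 and 47.4% of the 19, against 23.2% of all tested genes (11.9% higher, 11.3% lower). Among the ligands EFNB3, the third ephrin-B gene, rose from 25.1 ± 2.23 to 39.0 ± 5.74 CPM (log2 fold change 0.63, edgeR adjusted p = 0.0141). Among the receptors EPHB1, which guides retinal axons, rose from 0.354 ± 0.124 to 2.57 ± 0.240 CPM, from 5, 9 and 10 counts to 58, 72 and 62 (log2 fold change 2.85, edgeR adjusted p = 2.71e-04). EPHB1 passed the filter on low counts only through MT-F7, the group where it was high, and was not tested when 10 counts were required in every library. EPHB3, which acts together with EPHB2 in the gut epithelium, fell from 109 ± 2.38 to 71.1 ± 12.4 CPM (log2 fold change -0.62, edgeR adjusted p = 0.0130). EPHB6, a receptor without kinase activity, fell from 4.11 ± 0.281 to 2.44 ± 0.117 CPM (log2 fold change -0.75, edgeR adjusted p = 0.0429).

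The EphB class therefore held 2 genes that rose and 2 that fell among its 5 members. The call on EPHB6 was lost in each of the 6 fits that left out 1 library, with library size as the only scaling (edgeR adjusted p = 0.0504), with all genes of at least 1 count (edgeR adjusted p = 0.0529) and with limma on log2(TPM + 0.1) (adjusted p = 0.0874). EPHB3 lost its call without MC-F7 replicate 2, MT-F7 replicate 1 or MT-F7 replicate 2 (edgeR adjusted p = 0.0581, 0.0553 and 0.0772). EFNB3 lost its call without MT-F7 replicate 1 or 2 (edgeR adjusted p = 0.0752 and 0.0636). EFNA2, EFNA3, EFNA4 and EPHA10 had a mean of at least 1 CPM and did not pass, with log2 fold changes of 0.40, -0.25, 0.0026 and 0.69. EFNA1, EFNA3 and EFNA4 are direct neighbours among the protein-coding genes of the RefSeq annotation of the ARS-UCD2.0 assembly, and none of these 3 passed.

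**Figure D2:**
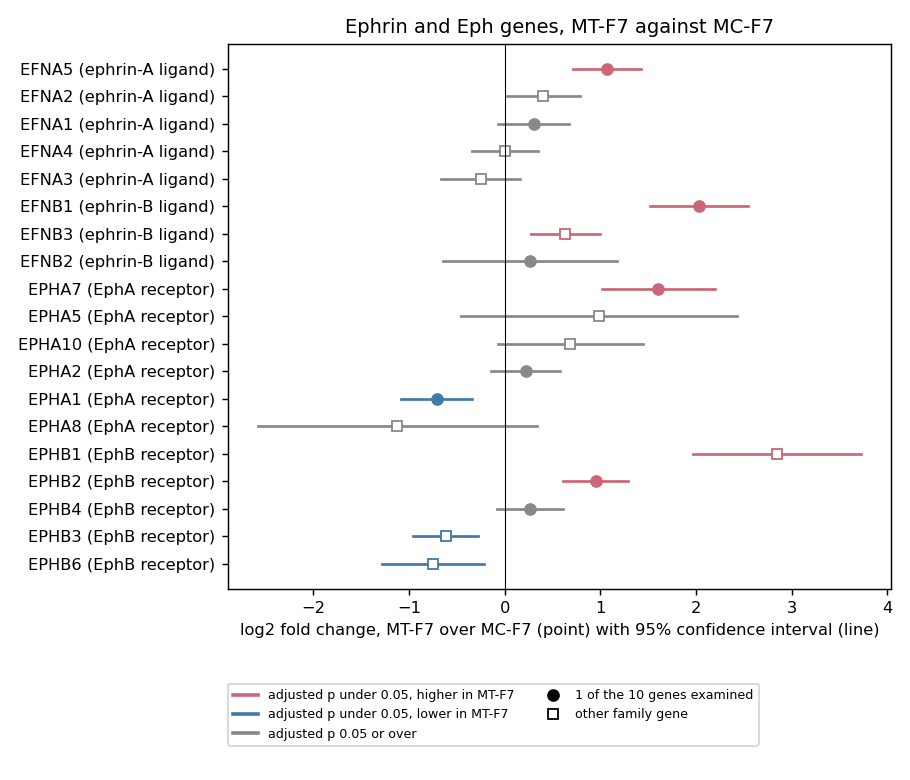
Log2 fold change of MT-F7 over MC-F7 (horizontal axis) with its 95% confidence interval for the 19 tested family genes, grouped by class; filled circles are among the 10 genes examined and open squares are the other family genes. Red (higher) and blue (lower) genes had an adjusted p under 0.05: 6 were higher, from EFNB3 at 0.63 to EPHB1 at 2.85, and 3 were lower, from -0.62 to -0.75.

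Levels of different genes were compared per gene length, on the values that the authors call TPM, each divided by the relative size of its library (hereafter the level per length). On this scale the order of the 9 genes in MC-F7 was EPHA2 (3.28 ± 0.274), EPHB4 (2.18 ± 0.240), EFNA5 (1.94 ± 0.321), EFNA1 (1.84 ± 0.247), EPHB2 (1.41 ± 0.0255), EPHA1 (1.16 ± 0.0824), EFNB1 (0.404 ± 0.136), EPHA7 (0.148 ± 0.0487) and EFNB2 (0.0797 ± 0.0269). The libraries of EPHB4 and EFNA5, of EFNA5 and EFNA1, and of EPHA7 and EFNB2 overlapped, and the other neighbours in this order did not. In MT-F7 the order was EFNA5 (4.08 ± 0.383), EPHA2 (3.82 ± 0.721), EPHB2 (2.73 ± 0.368), EPHB4 (2.63 ± 0.325), EFNA1 (2.28 ± 0.152), EFNB1 (1.66 ± 0.137), EPHA1 (0.708 ± 0.0880), EPHA7 (0.451 ± 0.0442) and EFNB2 (0.0960 ± 0.0288). Here EFNA5 and EPHA2, EPHB2 and EPHB4, and EPHB4 and EFNA1 overlapped. EFNA5 went from the third to the first place and EPHB2 from the fifth to the third, while EFNB1 and EPHA1 exchanged the sixth and seventh places. In both groups EFNA4, which is outside the 10 genes, had the highest level per length of the family, 10.9 ± 1.12 in MC-F7 against 10.9 ± 1.70 in MT-F7.

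**Figure D3:**
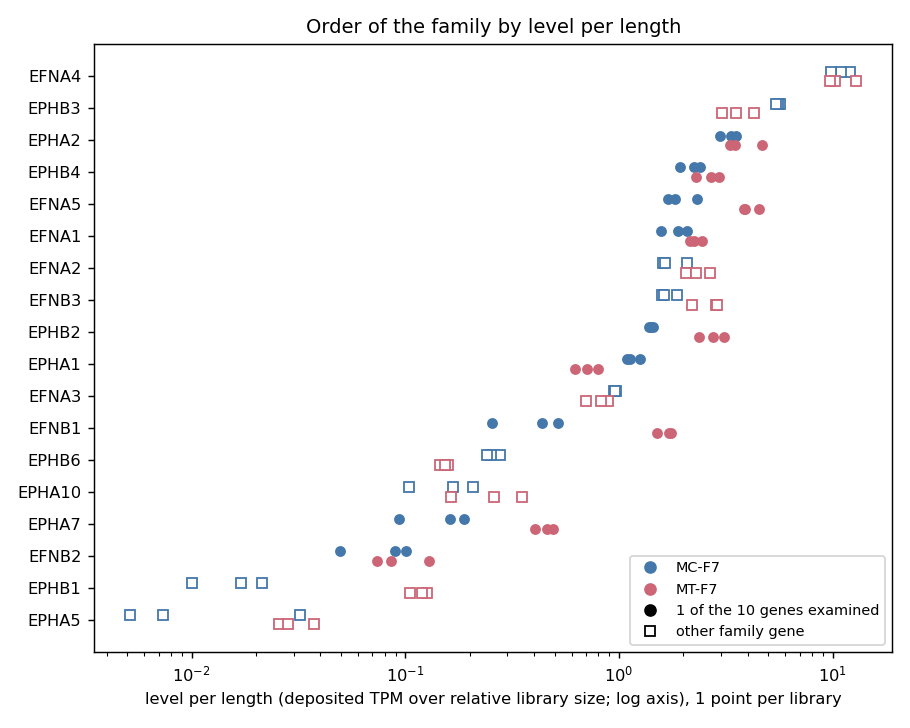
Level per length (horizontal log axis) of the family genes with an MT-F7 mean over 0.02, 1 point per library, MC-F7 in blue and MT-F7 in red; filled circles are among the 10 genes examined. EFNA4 had the highest level in both groups. Of the genes that passed the test, EFNB1, EPHA7, EPHB1, EFNA5, EPHB2 and EFNB3 were shifted to the right in MT-F7, and EPHA1, EPHB3 and EPHB6 to the left.

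Sums of the level per length showed more change on the ligand side than on the receptor side. The 8 ligand genes together had 20.9, 19.8 and 18.1 in MC-F7 against 23.8, 24.0 and 26.8 in MT-F7, 1.27 times as much on average and without overlap. The 13 receptor genes together had 13.8, 14.4 and 14.5 in MC-F7 against 14.1, 12.8 and 16.7 in MT-F7, so the ratio was 1.02 with overlap. The ephrin-B ligands had the highest ratio of the 4 classes, 2.01, at 2.18 ± 0.203 in MC-F7 against 4.38 ± 0.295 in MT-F7. The ephrin-A sum, whose ratio was 1.17 but whose difference in level was larger, was 17.4 ± 1.35 and 20.5 ± 1.96, the EphA sum 4.80 ± 0.299 and 5.28 ± 0.748, and the EphB sum 9.43 ± 0.0875 and 9.26 ± 1.32. With the TPM values used as deposited, or rescaled to 1000000 per library, the EphB ratio was above 1 and no longer below it. These sums are descriptions without a test.

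The makeup of the receptor sum differed although its size did not stand apart. EPHB3 made up 39.1% ± 1.90 of the receptor sum in MC-F7 and 24.9% ± 0.947 in MT-F7. EPHB2 made up 9.93% ± 0.437 and 18.8% ± 0.577. EPHA1 went from 8.15% ± 0.810 to 4.91% ± 0.719, EPHA7 from 1.03% ± 0.320 to 3.17% ± 0.721, and EPHB4 from 15.3% ± 1.30 to 18.1% ± 0.797. In each of these 5 genes, and in EPHB1 and EPHB6, the shares of the groups did not overlap. Shares of 1 sum move together, and the CPM of EPHB4 itself overlapped between the groups. Within a library, where library size cancels, the ratio of EPHB2 to EPHB3 was 0.253, 0.255 and 0.255 in MC-F7 against 0.777, 0.774 and 0.719 in MT-F7. The ratio of EPHB2 to EPHB4 was 0.653 ± 0.0860 in MC-F7 and 1.04 ± 0.0172 in MT-F7, and that of EPHA2 to EPHA1 was 2.85 ± 0.428 and 5.45 ± 1.22. The pairs were picked after the values had been seen. On the ligand side EFNA5 made up 9.87% ± 0.975 and 16.5% ± 2.20 of the sum, EFNB1 2.03% ± 0.559 and 6.68% ± 0.493, and EFNA4 55.6% ± 1.72 and 43.9% ± 3.90. EFNA4 lost share while its own level hardly differed between the groups.

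**Figure D4:**
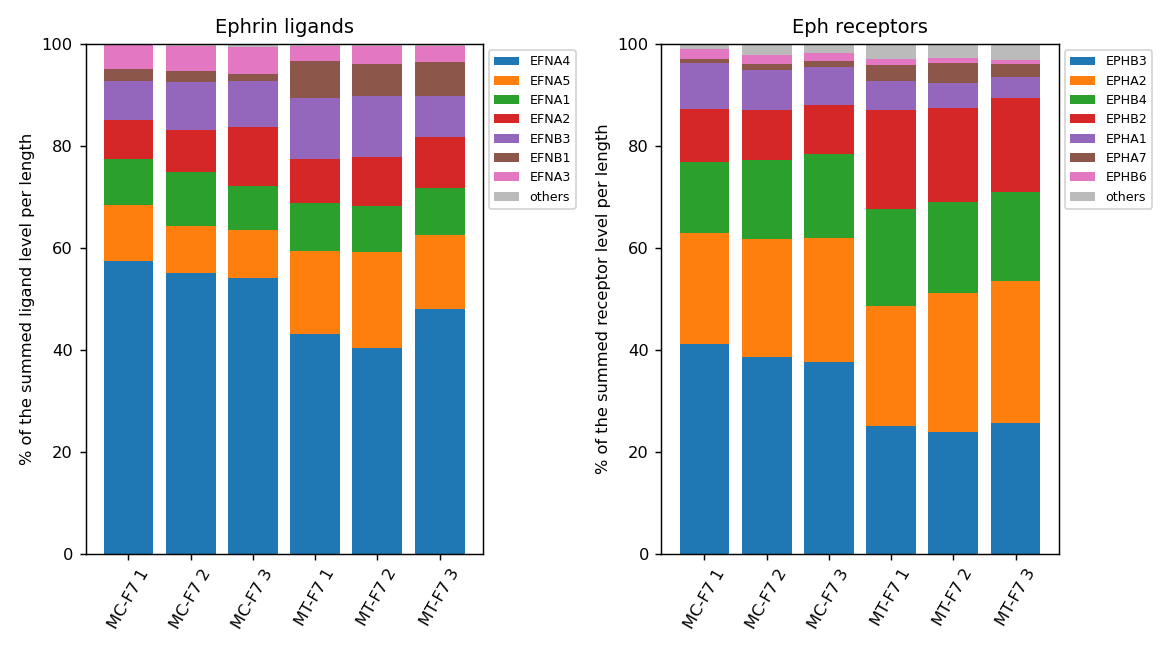
Share (vertical axes, % of the summed level per length) of each ligand gene (left) and each receptor gene (right) in the 6 libraries. In MT-F7 the EPHB3 share was smaller (24.9% against 39.1%) and the EPHB2 share larger (18.8% against 9.93%), and among ligands EFNA5 and EFNB1 took more and EFNA4 less.

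Genes whose products act with Eph receptors and ephrins were taken from a list of 57, of which 53 were tested. Of these 8 were higher and 4 lower in MT-F7, 22.6% of the tested list, which is near the 23.2% of all tested genes. Their median log2 fold change was 0.14.

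Of the 5 tested GTPase activating protein genes 2 passed, CHN2 and SIPA1L1, and they moved apart. CHN2, a Rac-directed chimaerin, had a log2 fold change of 2.59 from a low level of 0.222 ± 0.0574 CPM (edgeR adjusted p = 0.00176). With 5, 4 and 6 counts in MC-F7 it passed the filter only through MT-F7, and it was not tested when 10 counts were required in every library. By contrast SIPA1L1 fell from 225 ± 34.5 to 124 ± 12.9 CPM (log2 fold change -0.86, edgeR adjusted p = 0.00214). Of the 7 tested kinases that become active beside the receptors, 3 passed and 4 did not. LYN and FYN of the Src family rose, with log2 fold changes of 0.83 and 0.56 (edgeR adjusted p = 0.00719 and 0.0146), and ABL2 fell with -1.07 (edgeR adjusted p = 0.0227). Of the 10 tested adaptor genes 2 passed. GRB7 fell from 18.3 ± 0.577 to 4.01 ± 0.877 CPM (log2 fold change -2.19, edgeR adjusted p = 8.87e-06), and ANKS1A rose with 0.79 (edgeR adjusted p = 0.0113). MMP2, a matrix metalloproteinase, rose with 0.55 (edgeR adjusted p = 0.0224), as the only one to pass of 5 tested protease and endocytosis genes. None of the 8 tested GTPase and kinase effector genes, none of the 5 tested phosphatase genes and none of the 6 PDZ scaffold genes had an edgeR adjusted p under 0.05, and at an unadjusted p under 0.05 there were 1, 0 and 0. With DESeq2 the counts in these roles at an adjusted p under 0.05 were 0, 0 and 0. Leaving out MC-F7 replicate 2 ended the calls on FYN, MMP2 and ABL2. FYN and ABL2 were also lost without MT-F7 replicate 2, ABL2 without MT-F7 replicate 3 and with limma on log2(TPM + 1) and log2(TPM + 0.1) (adjusted p = 0.0594 and 0.0690), and MMP2 without MC-F7 replicate 3 or MT-F7 replicate 1.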

How the data were processed

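RNA-seq data of 6 libraries (3 MC-F7 and 3 MT-F7) were used. The authors aligned the reads with HISAT2 2.0.5 and counted them per gene with featureCounts 1.5.0-p3 (submitters' processing notes and methods); the genome build is not given in the sources used here. They deposited raw counts per Entrez gene and a table of values they call TPM. The deposited TPM kept a constant ratio to the count across libraries (within 1%) in 9681 of 9682 genes compared, so these values still hold library size; gene lengths behind them were not checked. Entrez identifiers were paired with symbols through a RefSeq table (ARS-UCD2.0), which held all but 89 of 19163. Antisense reads cannot be told apart because strand use in the counting is not stated. In the RefSeq annotation none of the family genes overlapped another gene of the count table.

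Genes were filtered with filterByExpr (minimum count 10, minimum total 15), normalized by TMM (factors 0.971 to 1.04) and tested with the quasi-likelihood test of edgeR 4.0.16 under R 4.3.3, two-sided, with Benjamini-Hochberg adjustment over 13001 genes and a threshold of 0.05. An exact permutation of 3 against 3 libraries cannot give a p below 0.1. Standard errors were taken from the F statistic. Alternatives were RLE factors, library size only, DESeq2 1.42.0, the likelihood ratio test, 2 other filters, a replicate block, leaving out single libraries, limma 3.58.1 on log2(TPM + 1) and log2(TPM + 0.1) for genes above 0 in at least 3 libraries, removal of 13 mitochondrial genes, and a required log2 fold change beyond 1 in either direction. The limma fits used the TPM values without scaling by library size. The steps were run on simulated counts with changes larger than most of those reported here, so that run does not show how well smaller changes are found. Intervals and limits from counts cover counting and library spread only.

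The members and lists were chosen with earlier results of these data known. All 10 genes are named, other family genes averaging 1 CPM or more or an adjusted p under 0.05, and up to 12 genes of the signaling list by smallest adjusted p. The genes of 1 role in that list are counted but not reported here.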

Additional observations from a re-analysis of the deposited data

How the results depend on the processing

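The count of 5 genes among the 9 (4 higher, 1 lower) stayed at 4 or 5 under all 16 alternatives of normalization, test, filter, unit and library, and between 4 and 5 with each library left out. The 16 include the limma fits on TPM values that still hold library size, and every MT-F7 library had more counts than any MC-F7 library. EFNA5, EFNB1, EPHA7 and EPHB2 passed in all 16, and EPHA1 in 13. Requiring a log2 fold change beyond 1 in either direction left 3 of these genes (EFNB1, EPHA7 and EFNA5), 1 other family gene (EPHB1), 5 signaling genes and 1489 of all tested genes. With 1 library left out, 1 to 3 other family genes passed in place of 4 (2 without MC-F7 replicate 2, and 1 without MT-F7 replicate 1 or 2), 8 to 13 signaling genes in place of 12, and 1914 to 3093 of all tested genes in place of 3016, with 1914 when MC-F7 replicate 2 was left out; these fits had fewer samples. With single libraries left out, the log2 fold change of EFNB2 ran from -0.0076 (without MT-F7 replicate 3) to 0.45, and that of EFNA4 from -0.14 (without MT-F7 replicate 3) to 0.086, with -0.075 without MC-F7 replicate 3. With the block EFNA4 had -0.0041. The cause of these turns was not tested.

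Libraries with the same replicate number had correlations of their deviations across genes of 0.134, 0.0445 and 0.417 for replicates 1, 2 and 3, and 2 of the 6 libraries correlated best with their own number, so the numbers were not taken to pair the samples. With the replicate number as a block 4674 of all tested genes passed in place of 3016, the same 5 of the 9 genes and 5 other family genes, EFNA2 being added (adjusted p = 0.0291).

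On the level per length, the TPM values as deposited gave log2 ratios of MT-F7 to MC-F7 of 0.35 for ephrin-A ligands (0.23 after division by library size), 1.14 for ephrin-B ligands (1.01) and 0.47 for all ligands (0.34). For EphB receptors the log2 ratio was -0.027 after division by library size, 0.097 as deposited and 0.048 when rescaled to 1000000. As deposited the values still hold library size.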

Other observations

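The remaining EphA receptors that averaged under 1 CPM had few counts in both groups. EPHA5 was counted 3, 14 and 2 times in MC-F7 against 17, 12 and 12 times in MT-F7, and EPHA8 had 5, 20 and 15 against 7, 11 and 2, with groups that overlapped in both genes, and neither passed (log2 fold change 0.99 and -1.12, edgeR adjusted p = 0.309 and 0.250). EPHA3 had 3, 2 and 1 against 0, 0 and 2, and EPHA6 had 2 counts in MC-F7 replicate 3 and 0 in the other libraries. No difference was detectable at this depth in EPHA3 and EPHA6.

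Of 8 endothelial markers, examined because EFNB2 and EPHB4 are known from arteries and veins, the sum was 11.1 to 12.7 CPM in MC-F7 and 18.9 to 21.1 CPM in MT-F7. TEK carried this difference, since the other 7 markers summed to 8.58, 9.82 and 10.1 CPM in MC-F7 against 7.01, 6.99 and 7.98 CPM in MT-F7, lower without overlap. Of 5 tested markers 2 were higher (TEK and EMCN) and 1 lower (VWF), and TIE1 and CLDN5 did not pass (log2 fold change -0.081 and -0.46). PECAM1 and ERG had at most 3 counts in any library. TEK, a receptor tyrosine kinase of endothelial cells, rose from 2.52 ± 0.356 to 12.7 ± 0.716 CPM. EMCN had a log2 fold change of 2.46 (edgeR adjusted p = 0.00548) from 4, 3 and 8 counts in MC-F7 against 40, 33 and 20 in MT-F7. It passed the filter on low counts only through MT-F7, the group where it was high. VWF fell from 3.60 ± 1.24 to 1.46 ± 0.438 CPM (edgeR adjusted p = 0.0169). The 6 trophectoderm markers in the count table summed to 1825 to 2830 CPM in MC-F7 and 678 to 791 CPM in MT-F7, nearly all of it from the keratin genes KRT8 and KRT18. Of the 3 tested markers these 2 were lower, and TFAP2C did not pass (log2 fold change -0.017, edgeR adjusted p = 0.981). GATA3 had at most 7 counts in any library, and CDX2 was at 0 in all 6 libraries.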
